A study of Mus musculus with 16 samples.

Results

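Resting wild-type CD8 T cells were compared with resting wild-type CD4 T cells on 5 of 16 single-colour Affymetrix arrays, over all 17097 genes that a probe set for 1 gene represents. Arrays were assigned to the groups by their labels, and the comparison was chosen with earlier results of these data known. It holds 2 arrays of unstimulated naive CD8 cells and 3 arrays of unstimulated naive CD4 cells, both sorted from wild-type mice on a C57BL/6 background. The other 11 arrays hold Tsc1-deficient CD4 and CD8 cells, and CD4 cells of both genotypes after 4 h on plate-bound antibodies to CD3 and CD28. None of the 5 arrays carries a deletion or a stimulus (0 h), so the comparison describes how the lineages differ before antigen. For the deficient cells, used below as a second set of arrays, the labels name no promoter that drives the deletion. Nothing in the labels ties replicate arrays to different animals, so p-values cover the array-to-array spread alone, and part of it may be technical.

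CD4 and CD8 T cells arise from a common thymic precursor. CD4 cells recognise peptides on MHC class II and are committed by the transcription factor ThPOK (encoded by Zbtb7b), while CD8 cells recognise peptides on MHC class I and are committed by Runx3, which binds the Cd4 silencer. Each factor restrains the programme of the other lineage, and naive CD8 cells already transcribe part of the cytotoxic programme that they use after activation. In bulk samples such as these, fewer cells of a type and less RNA per cell cannot be told apart.

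Promoters of the genes at both ends of the comparison are shown because commitment to the CD8 lineage runs through a RUNX factor. The RefSeq table (build GRCm38.p6) holds the 250 bases before the start of 13605 of the 17097 genes, in 17065 windows, as some genes have several starts. The windows shown are those of Cd8a, chr6:71373177-71373426 (plus strand), the gene with the greatest excess in CD8 cells; Nkg7, chr7:43436888-43437137 (plus strand), Cxcr6, chr9:123806227-123806476 (plus strand), and the first of several starts of Plac8, chr5:100572206-100572455 (minus strand), which hold a RUNX motif; and St8sia6, chr2:13793521-13793770 (minus strand), the gene with the greatest deficit. Nkg7, Cxcr6 and Plac8 were picked for their matches. Windows were available for 15 of the 20 highest genes and 14 of the 20 lowest, with none for Itgae, Cd8b1, Klrd1 or Cd4. Of their windows, 6 of 18 for the highest genes and 4 of 18 for the lowest hold at least 1 match. The window of a further Plac8 start holds 0. Capitals mark TGTGGT or TGCGGT on either strand.
Cd8a: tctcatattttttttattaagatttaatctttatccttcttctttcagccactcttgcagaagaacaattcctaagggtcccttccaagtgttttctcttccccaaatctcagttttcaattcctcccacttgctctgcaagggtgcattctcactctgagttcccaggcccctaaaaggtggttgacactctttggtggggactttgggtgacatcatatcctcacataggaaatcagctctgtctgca
Nkg7: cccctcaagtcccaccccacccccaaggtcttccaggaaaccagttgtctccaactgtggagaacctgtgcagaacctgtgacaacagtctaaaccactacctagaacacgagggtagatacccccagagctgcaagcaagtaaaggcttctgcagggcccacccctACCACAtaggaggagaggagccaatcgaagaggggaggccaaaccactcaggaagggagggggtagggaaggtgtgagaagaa
Cxcr6: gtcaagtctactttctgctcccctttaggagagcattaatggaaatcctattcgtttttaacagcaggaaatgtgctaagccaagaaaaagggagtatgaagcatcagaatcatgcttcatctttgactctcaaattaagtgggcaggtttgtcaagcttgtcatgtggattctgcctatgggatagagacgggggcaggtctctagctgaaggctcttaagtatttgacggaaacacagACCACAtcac
Plac8: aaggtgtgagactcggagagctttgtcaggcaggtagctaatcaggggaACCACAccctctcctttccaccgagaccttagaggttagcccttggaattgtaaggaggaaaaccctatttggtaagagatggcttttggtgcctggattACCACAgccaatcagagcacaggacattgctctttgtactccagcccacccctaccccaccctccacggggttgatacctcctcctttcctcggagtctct
St8sia6: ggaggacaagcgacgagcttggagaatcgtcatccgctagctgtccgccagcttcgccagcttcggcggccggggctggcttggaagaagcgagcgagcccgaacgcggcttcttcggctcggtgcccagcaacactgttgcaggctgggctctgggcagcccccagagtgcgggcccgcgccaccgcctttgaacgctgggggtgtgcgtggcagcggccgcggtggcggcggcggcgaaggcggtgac
Plac8 held 2 matches, Nkg7 and Cxcr6 1 each, and the windows of Cd8a and St8sia6 held 0. A motif of 6 letters occurs often: 17.6% of all windows held at least 1. Among genes higher in CD8 cells 24.3% of 449 windows did, among those higher by at least 2-fold 29.0% of 145, among those lower 19.0% of 484, and among those lower by at least 2-fold 19.2% of 125. For the letters AGATAA or TGATAA, recognised by GATA factors, the share was 11.7% of all windows, 11.1% of those of higher genes and 9.71% of those of lower genes, and at a minimum of 2-fold 8.97% and 13.6%, the reverse order. These shares are descriptions of letters in a window and were not tested.

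The lineages differed in 862 genes (5.04% of those tested) at an adjusted p under 0.05 by limma, and these are the genes called below. In CD8 cells 423 were higher (2.47%) and 439 lower (2.57%). Of the called genes, 247 (1.44% of all) differed by at least 2-fold, 136 of them higher in CD8 cells and 111 lower, and the median size of a called difference was 0.73 on the log2 scale. Arrays of the lineages did not overlap for any of the 862, against 36.9% of all genes tested (6316). Values are log2 signals, and differences are mean CD8 minus mean CD4 signal with their standard error (±). The count fell to 422 without CD8 replicate 1 and to 416 without CD8 replicate 2, in fits where the remaining CD8 array is assumed to vary like the other groups. It was 1324 without deficient CD8 replicate 2 and stimulated deficient CD4 replicate 1, which enter this comparison only through the estimate of the spread, and 1391 with array weights.

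**Figure D1:**
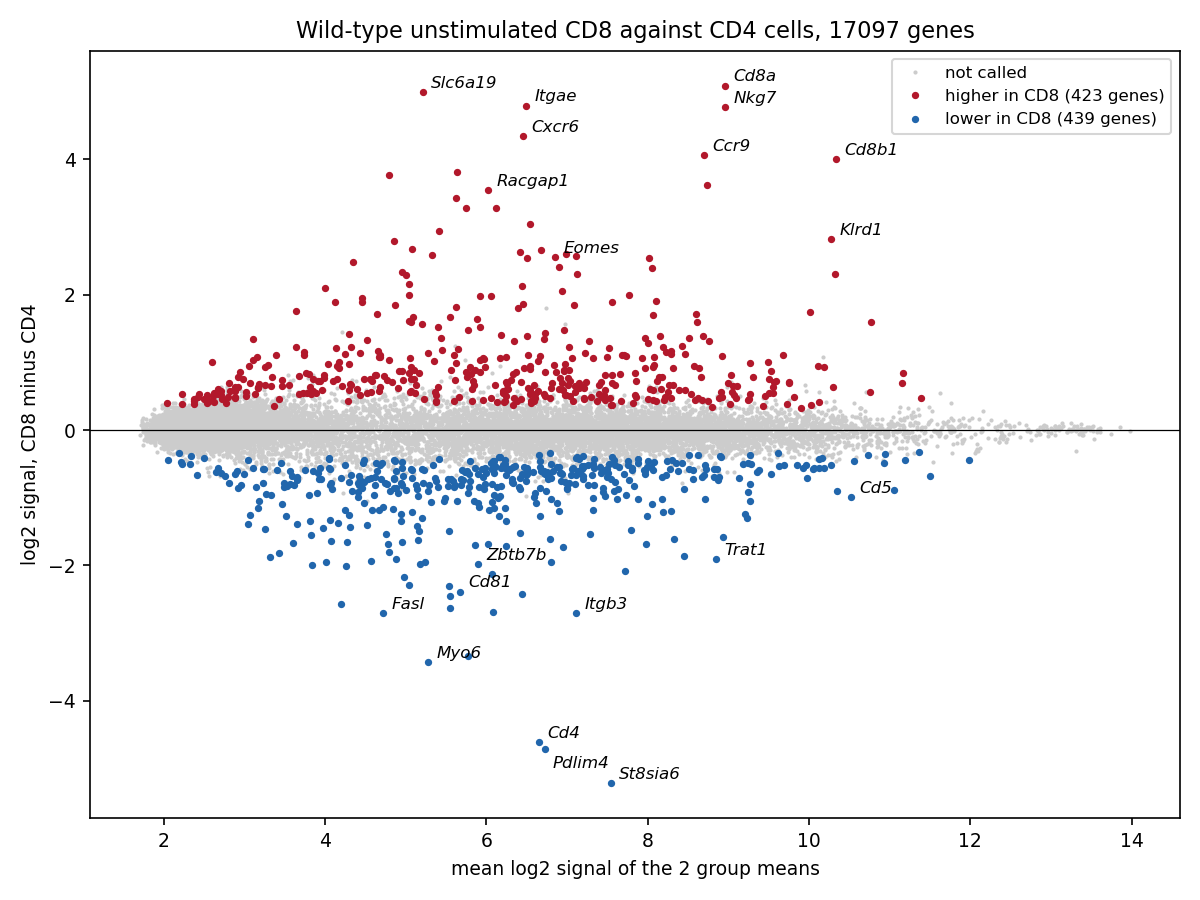
Difference in log2 signal, wild-type CD8 minus CD4 (vertical axis), against the mean of both group means (horizontal axis), 1 point per gene. Red points mark the 423 genes higher in CD8 cells and blue points the 439 genes lower; Cd8a and Slc6a19 lie at the top and St8sia6 at the bottom.

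Technical measures also differed between the lineages. The signal of the 3' end of Gapdh exceeded that of its 5' end by 0.39 and 0.40 on the CD8 arrays and by 0.11 to 0.20 on the CD4 arrays. The serial numbers in the titles of all CD8 arrays are above those of all CD4 arrays, in both genotypes. The labels do not say what these numbers stand for, so any order they mark cannot be told apart from the lineage. With the Gapdh difference as a covariate 978 genes were called, 750 of them among the 862. Replicate arrays correlated at 0.995 to 0.996, and Xist was between 11.80 and 12.06 on all 5 arrays.

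The coreceptors separated the groups as the labels state. Cd8a, the alpha chain of CD8, had signals of 6.99, 6.11 and 6.16 on the CD4 arrays and of 11.34 and 11.68 on the CD8 arrays. The CD8 arrays were far above all CD4 arrays, a difference of 5.09 ± 0.24 or 34.1-fold (adjusted p = 4.28e-10). Cd8b1, the beta chain, read 8.67, 8.29 and 8.04 in CD4 cells and 12.32 and 12.34 in CD8 cells, a difference of 4.00 ± 0.21 (adjusted p = 1.54e-09). CD4 replicate 1 was the highest CD4 array for both chains, and for 10 of the 20 highest and 9 of the 20 lowest genes in all, among them Itgae and Nkg7 but not Klrd1, Slc6a19 or Cxcr6. Without that array the Cd8a difference was 5.38. Cd4 itself read 8.92, 9.04 and 8.89 in CD4 cells against 4.74 and 3.95 in CD8 cells, lower by 24.3-fold (difference -4.60 ± 0.24, adjusted p = 1.44e-09).

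The lineage factors differed in how far their transcripts separated. Zbtb7b read 6.74, 7.05 and 6.86 in CD4 cells and 4.77 and 5.03 in CD8 cells, with no overlap, and was 3.96-fold lower in CD8 cells (-1.99 ± 0.17, adjusted p = 5.11e-07). Runx3 read 8.23, 7.99 and 8.21 in CD4 cells and 8.49 and 8.43 in CD8 cells. Its arrays did not overlap either, but the difference of 0.32 ± 0.11 did not pass the test (adjusted p = 0.122). It passed with array weights (adjusted p = 0.0433) and with the Gapdh covariate (adjusted p = 0.0491). In the Tsc1-deficient cells, whose means come from other arrays but whose spread is shared, the Runx3 difference was 0.74 ± 0.11 (adjusted p = 0.000299). Runx1, named after its values were seen, went the other way: it read 8.51 to 8.64 in CD4 cells and 7.48 and 7.53 in CD8 cells (-1.09 ± 0.10, adjusted p = 2.68e-06).

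Of the 10 measured genes of the CD8 lineage list, 7 were higher in CD8 cells and 0 lower, with a median difference of 2.68 against 0.02 over all genes. Counts of this and the lists below stand beside 2.47% of all genes called higher and 2.57% called lower. The lists were chosen with earlier results of these data known, so their counts and medians are descriptions and not a test. Itgae, the alpha E integrin chain that binds E-cadherin, read 4.57, 4.12 and 3.59 in CD4 cells and 9.07 and 8.71 in CD8 cells (4.79 ± 0.21, adjusted p = 3e-10). Crtam, a surface receptor of class I-restricted T cells, was higher by 2.54 ± 0.19 (adjusted p = 1.34e-07). Ctsw, which encodes cathepsin W, was higher by 2.31 ± 0.18 (adjusted p = 1.68e-07). Besides Runx3, Actn1 (-0.14 ± 0.13, adjusted p = 0.711) and Patz1 (-0.48 ± 0.15, adjusted p = 0.076) did not pass, and Patz1 passed in 4 of the 14 alternative settings.

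Of the 13 measured genes of the CD4 lineage and helper list, 6 were lower in CD8 cells and 0 higher, with a median difference of -0.56. St8sia6, a sialyltransferase, had the greatest deficit of all genes: 10.10, 10.22 and 10.13 in CD4 cells against 4.94 and 4.94 in CD8 cells, 37.1-fold lower (adjusted p = 9.41e-12). Trat1, a transmembrane adaptor of the T cell receptor complex, read 9.76 to 9.82 in CD4 cells and 7.88 and 7.90 in CD8 cells, with no overlap (-1.91 ± 0.18, adjusted p = 2.38e-06). Cd40lg, the helper ligand for CD40 on B cells, was 1.27 lower on the log2 scale in mean signal, at 3.97 to 4.51 against 2.73 and 3.02. Both CD8 values lie under the median of the table, 3.36, where a difference is compressed. Il6ra, the interleukin 6 receptor, was lower (-0.56 ± 0.15, adjusted p = 0.0441) but lost the call without any 1 of the 5 arrays. Gata3 (-0.65 ± 0.20, adjusted p = 0.0812), Icos, Il6st, Socs3, Maf, Rora and Tnfsf8 did not pass.

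**Figure D2:**
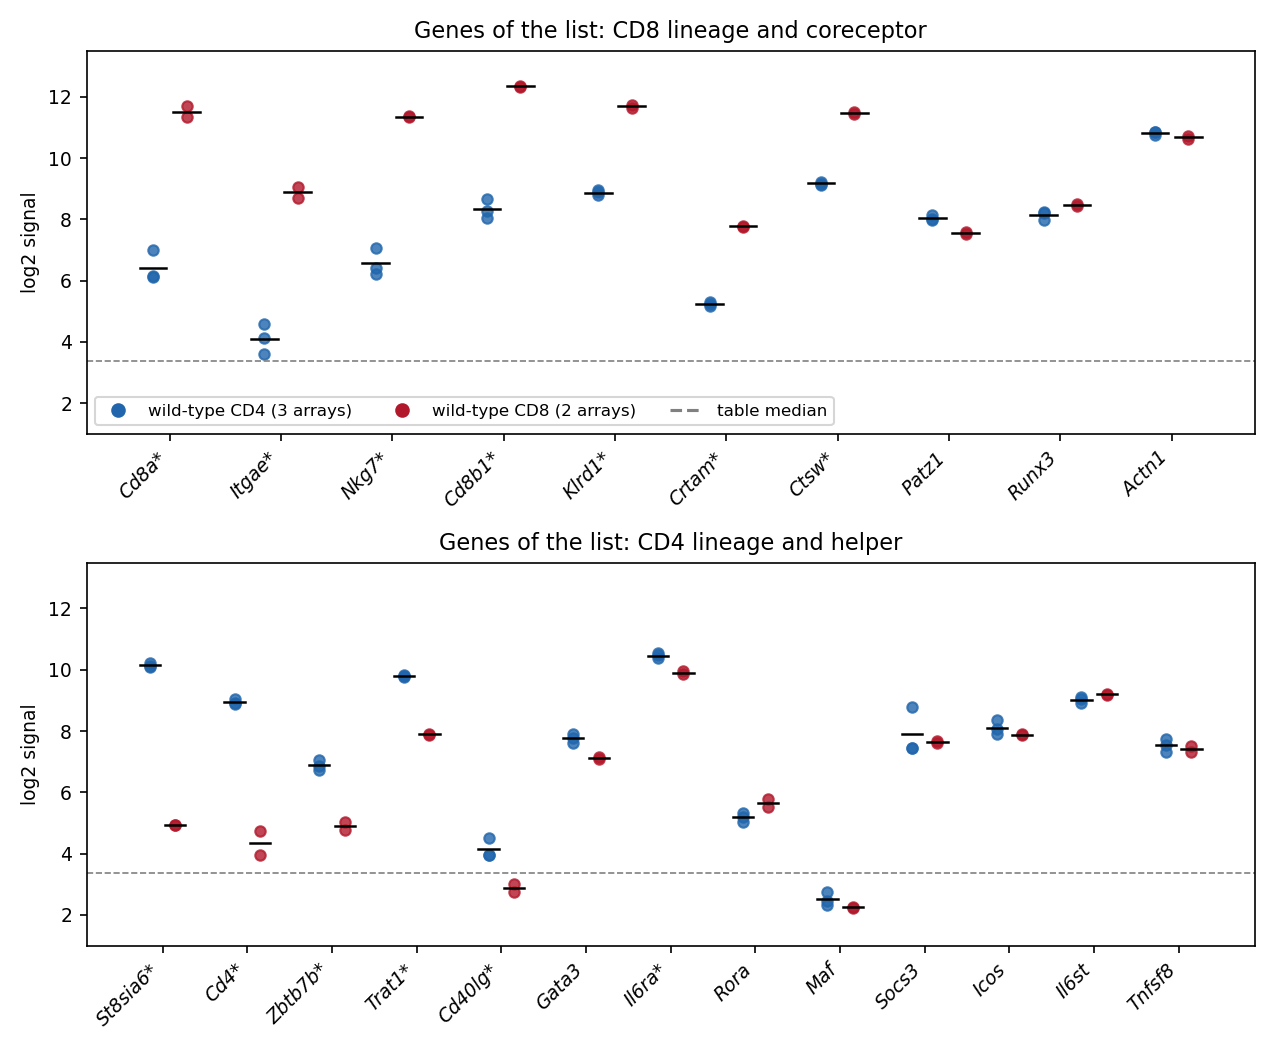
Log2 signal of each array for the measured genes of the CD8 lineage list (top) and the CD4 lineage and helper list (bottom). Points are arrays, black bars are group means, the dashed line is the table median and asterisks mark called genes. Cd8a shows the widest gap in the top panel, and St8sia6 followed by Cd4 in the bottom panel. The Runx3 points are close in both lineages.

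Of 29 measured cytotoxic and natural killer receptor genes, 8 were called higher in CD8 cells and 1 lower. Nkg7, a membrane protein of cytotoxic granules, read 7.08, 6.41 and 6.23 in CD4 cells and 11.33 and 11.36 in CD8 cells, 27.4-fold higher (4.78 ± 0.26, adjusted p = 2.25e-09). Klrd1, the CD94 chain of the inhibitory and activating NKG2 receptors, read 8.78, 8.94 and 8.89 against 11.63 and 11.74 (2.82 ± 0.12, adjusted p = 2.25e-10). Neither gene overlapped between the lineages, which was required of the 20 highest genes. Cd160, a receptor for class I molecules and HVEM, was higher by 2.15 ± 0.21. Cst7 (2.54 ± 0.27), which encodes cystatin F, was named after its values were seen. Prf1, the pore-forming perforin, was higher by 0.98 ± 0.25 (adjusted p = 0.0342) but lost the call without any 1 of the 5 arrays.

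Fasl, the death ligand of cytotoxic cells, was the member lower in CD8 cells. It read 5.81, 6.16 and 6.23 in CD4 cells and 3.51 and 3.22 in CD8 cells, 6.53-fold lower (adjusted p = 5.03e-08). The second CD8 array was below the table median. The same direction was measured in the deficient cells (-3.07 ± 0.19, adjusted p = 1.34e-08).

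Of 55 measured T cell transcription factors, 3 were higher in CD8 cells and 7 lower. Eomes, a T-box factor of cytotoxic and memory cells, read 5.80, 5.71 and 5.21 in CD4 cells and 8.22 and 8.05 in CD8 cells (2.56 ± 0.40, adjusted p = 0.000671). Hopx was higher by 1.36 ± 0.20 (adjusted p = 0.00038). Ikzf4, which encodes Eos, was lower (-1.16 ± 0.15, adjusted p = 9.29e-05). Prdm1, which encodes Blimp-1, was lower by a mean difference of -1.37 ± 0.24 (adjusted p = 0.00203) and lost the call without CD8 replicate 2. Without that array the list held 3 higher and 3 lower genes.

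Genes of T cell receptor signalling gave 3 higher and 5 lower of 40 measured. Cd5, a receptor that dampens signalling, read 11.03, 11.06 and 10.98 in CD4 cells and 10.03 ± 0.04 (SD, n = 2) in CD8 cells (-0.99 ± 0.13, adjusted p = 9.67e-05). Its arrays did not overlap. Sla2, an adaptor that limits receptor signals, was higher by 0.71 ± 0.13 (adjusted p = 0.0024). The phosphatase gene Ptpn22 was higher by 0.71 ± 0.14 (adjusted p = 0.00409) and lost the call without CD8 replicate 2. Without any 1 of the 5 arrays, 3 to 5 of the 40 genes passed, so the smaller differences rest on all of them; Rasgrp1 and Themis were lost each time. The genes lost without CD8 replicate 2 left 1 higher and 2 lower.

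Of 26 cytokine receptor genes, 3 were higher and 3 lower. The lower ones numbered 1 without CD4 replicate 2 or 3 or either CD8 replicate, and with quantile normalization; the higher ones numbered 3 in each of these. Il2rb, the beta chain of the receptors for interleukins 2 and 15, read 6.94, 6.55 and 6.34 in CD4 cells and 8.51 and 8.49 in CD8 cells, 3.71-fold higher (adjusted p = 2.79e-06). Il18rap, a chain of the interleukin 18 receptor, was higher by 1.33 ± 0.18, and Ifngr1 by 0.60 ± 0.10 (adjusted p = 0.00154). Tgfbr3, a coreceptor for transforming growth factor beta, was lower (-1.25 ± 0.19, adjusted p = 0.000459). Among 18 regulators of cytokine signals, Pim2 was higher (0.92 ± 0.19) and Cish lower (-0.61 ± 0.14). Both calls were lost when 1 CD8 array, whichever it was, was left out, and that of Cish also without CD4 replicate 2.

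Homing and adhesion genes were called in both directions, 5 higher and 5 lower of 32 (3 lower without CD8 replicate 2). Cxcr6, the receptor for CXCL16, read 4.32, 4.03 and 4.52 in CD4 cells and 8.56 and 8.70 in CD8 cells, 20.2-fold higher (adjusted p = 1.4e-07). Ccr9, the receptor for the gut and thymus chemokine CCL25, read 6.94, 6.65 and 6.41 against 10.68 and 10.78 (4.07 ± 0.21, adjusted p = 1.54e-09). Cxcr3, a receptor of inflamed tissue, was higher by 1.98 ± 0.29 (adjusted p = 0.000298). None of these overlapped, as held for all 862 called genes. On the other side, Itgb3, the integrin beta 3 chain, read 8.40, 8.48 and 8.49 in CD4 cells and 5.77 and 5.75 in CD8 cells (-2.70 ± 0.11, adjusted p = 1.97e-10). L1cam, a cell adhesion molecule, was lower (-2.41 ± 0.11, adjusted p = 3.61e-10). Icam1 (1.31 ± 0.19) and Cd44 (-1.17 ± 0.14), named after their values were seen, went in opposite directions.

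Costimulatory and surface regulator genes were mostly lower in CD8 cells where they passed, 11 lower and 5 higher of 37, with a median difference of -0.13. The higher ones numbered 2 without CD4 replicate 3 or CD8 replicate 2 and 3 without any other of the 5 arrays, and the lower ones 10 or 11. Cd81, a tetraspanin, read 6.71, 7.07 and 6.84 in CD4 cells and 4.26 and 4.71 in CD8 cells, 5.22-fold lower (adjusted p = 5.03e-08). Cd200, a ligand that restrains myeloid cells, was lower (-1.63 ± 0.16, adjusted p = 3.51e-06). Tnfrsf25, the death receptor for TL1A, was lower (-1.60 ± 0.10, adjusted p = 2.46e-08), and so was Izumo1r, which encodes the folate receptor FR4 (-1.54 ± 0.17, adjusted p = 1.41e-05). Cd28, named after its values were seen, was lower at a high signal in both lineages, 10.65 to 10.93 against 9.89 and 9.91 (-0.91 ± 0.14, adjusted p = 0.00052).

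Glycosylation enzymes gave 2 higher and 5 lower of 20. After St8sia6, St3gal2, another sialyltransferase, had the next greatest deficit (-1.95 ± 0.20, adjusted p = 5.76e-06). Its CD8 values of 3.20 and 2.86 lie under the table median. St8sia4 (-0.69 ± 0.12) and Man1c1 (-0.78 ± 0.15) were also lower, and St3gal6 was higher (0.67 ± 0.17, adjusted p = 0.0351). St3gal6 lost the call without any 1 of the 5 arrays, and St8sia4 and Man1c1 without CD8 replicate 2. Without that array 0 genes of the list were higher and 2 lower; without CD4 replicate 2, or without CD8 replicate 1, 0 were higher and 4 lower. Without CD4 replicate 1 it was 1 and 4, and without CD4 replicate 3 it was 0 and 5. With the probe sets of a gene averaged, 0 were higher and 4 lower, and the calls of St3gal6 (0.27) and St8sia4 were lost.

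Counts of the other pathways were small and stand beside 5.04% of all genes called. Tapbpl, a peptide editor of MHC class I, was 1 of 12 genes of class I presentation to pass (0.93 ± 0.13, adjusted p = 0.000195). Among 23 survival and death genes, the BH3-only genes Pmaip1 (2.10 ± 0.24, from a CD4 mean of 2.95 under the table median) and Bid (1.02 ± 0.13, adjusted p = 6.85e-05) were higher and Fasl lower. The mTOR list gave 1 higher gene of 23, Eif4ebp1 (0.49 ± 0.13, adjusted p = 0.0423), lost without any 1 of the 5 arrays. The call was also lost with its probe sets averaged (0.22), with arrays centred on their median, and with an intensity trend and robust prior. Its dimmer probe set gave a difference of -0.05. The glycolysis list gave 1 of 15, the glucose transporter Slc2a3 (0.65 ± 0.11, adjusted p = 0.00127), which did not pass with its probe sets averaged. Tsc1, the gene deleted elsewhere in the series, read 7.25, 7.39 and 7.29 in CD4 cells and 6.99 and 6.88 in CD8 cells (-0.38 ± 0.11, adjusted p = 0.0518).

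The mitosis list gave 3 higher of 24. Racgap1, a GTPase-activating protein of cytokinesis, read 4.34, 4.10 and 4.31 in CD4 cells and 7.71 and 7.87 in CD8 cells, 11.7-fold higher (adjusted p = 9.01e-09). Kif23, its partner in the central spindle, was higher by 1.72 ± 0.29 (adjusted p = 0.00115), and Cdc20 by 0.66 ± 0.18 (adjusted p = 0.0449), a call lost without CD4 replicate 1 or 2 and without CD8 replicate 1 or 2. The mean signal of the list was 3.50 to 3.66 on the CD4 arrays and 3.78 and 3.87 on the CD8 arrays, with the called genes included. Its median difference was only 0.06, and 9 of the 24 genes lay at or below the table median in both lineages. In the deficient cells Racgap1 was higher by 3.31 ± 0.21, while the Kif23 difference was 0.63 ± 0.29 (adjusted p = 0.233). Of 24 interferon response genes, Gbp3 was higher (1.14 ± 0.30) and Ifit2 lower (-1.01 ± 0.22). The mean of that list ranged from 7.17 to 8.07 among the CD4 arrays alone, and 0 genes of it passed when CD8 replicate 1 or CD8 replicate 2 was left out.

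**Figure D3:**
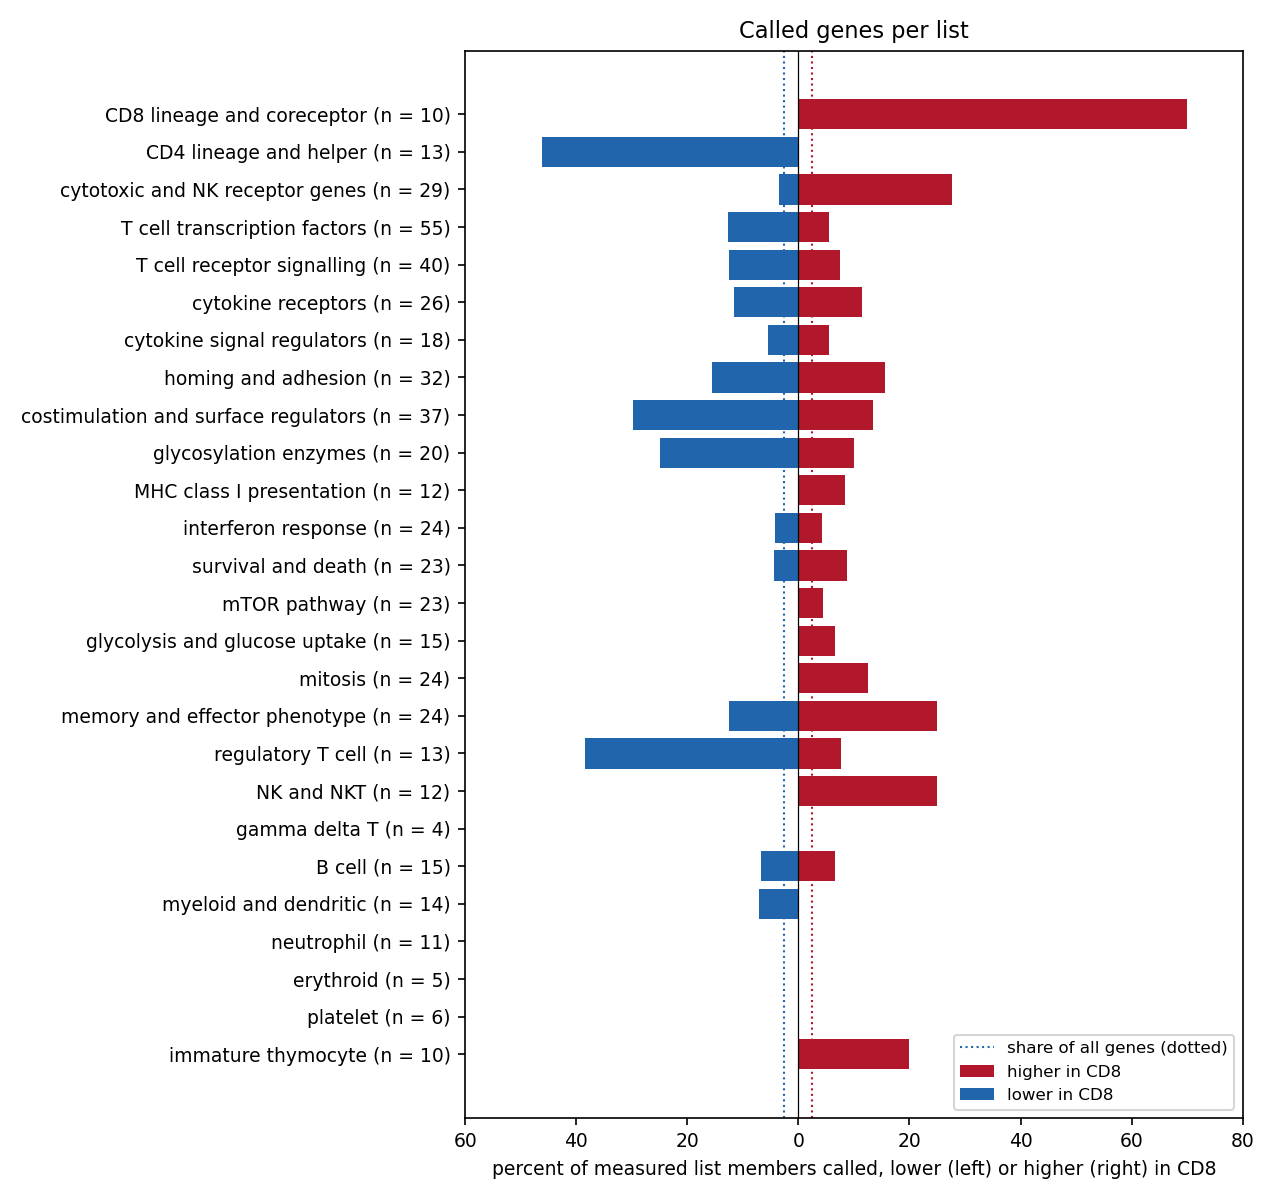
Percent of the measured genes of each list that were called lower (left, blue) or higher (right, red) in wild-type CD8 cells, with the share among all genes as dotted lines. The CD8 lineage list reaches furthest right with 7 of 10, and the CD4 lineage list furthest left with 6 of 13. Lists were chosen with earlier results of these data known.

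Several of the greatest differences lay outside these lists. Slc6a19, a neutral amino acid transporter known from gut and kidney, read 2.75, 2.97 and 2.42 in CD4 cells, under the table median, and 7.67 and 7.74 in CD8 cells (4.99 ± 0.22, adjusted p = 3e-10). Haao, an enzyme of tryptophan breakdown toward NAD, read 2.65 to 3.30 and 6.56 to 6.80 (3.77 ± 0.18, adjusted p = 4.28e-10). Both lay under the table median in CD4 cells and above it in CD8 cells, so their fold is compressed. Plac8 was higher by 3.62 ± 0.39, the ubiquitin ligase Nedd4 by 3.42 ± 0.17, the potassium channel Kcna2 by 3.27 ± 0.25 and Ddc, which encodes dopa decarboxylase, by 2.94 ± 0.17. Bend4 (3.81 ± 0.25), Baiap3 (3.29 ± 0.15) and Cxxc5 (3.05 ± 0.21) also ranked among the 20 highest.

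Among the genes lower in CD8 cells, Pdlim4, a PDZ and LIM protein of the actin cytoskeleton, read 9.02, 9.07 and 9.15 in CD4 cells and 4.47 and 4.26 in CD8 cells. It had the smallest adjusted p of all named genes, 1.32e-12, at a 26.3-fold deficit. Myo6, a myosin that moves toward the minus end of actin, read 7.32, 6.84 and 6.84 against 3.53 and 3.60 (-3.43 ± 0.23). Their arrays did not overlap, which was required of the 20 lowest genes. Epas1, which encodes the hypoxia factor HIF-2 alpha, was 6.18-fold lower (adjusted p = 4.93e-06), Adh1 6.42-fold and Aldh2 5.45-fold. The 20 lowest ranged from a 37.1-fold deficit for St8sia6 to 3.97-fold for Arxes2, whose CD8 mean of 2.85 lies under the table median.

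For some genes with several probe sets the size of the difference depended on the probe set. With the probe sets of a gene averaged, the difference was -2.11 for Myo6, 2.05 for Kcna2, 1.47 for Ddc, -1.34 for Epas1, -1.13 for Aldh2, -1.28 for L1cam, 0.94 for Kif23, 0.55 for Bid and -1.23 for St3gal2. It was -0.55 for Ikzf4, -0.62 for Tgfbr3, 0.87 for Il18rap, 0.55 for Ahnak, 0.48 for Prf1, 0.27 for St3gal6 and -0.74 for Cd44. Each of these is smaller than the difference of the brightest probe set by over 1.5 times, with the same sign.

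Markers of other cells were measured in the same arrays, where 5.04% of all genes were called. Of 13 regulatory T cell genes, 5 were lower in CD8 cells, among them Izumo1r, Ikzf4 and Capg (-1.27 ± 0.14, adjusted p = 1.07e-05), and Itgae was higher. The list's mean was 5.52 to 5.71 on the CD4 arrays and 5.37 and 5.39 on the CD8 arrays. Foxp3, its defining factor, read 3.83, 3.99 and 3.59 against 3.03 and 3.29 and did not pass (adjusted p = 0.0875), and the part of such cells in the lower genes was not tested. Of 24 memory and effector genes, 6 were higher, among them Cxcr3, Il2rb and Ahnak (1.70 ± 0.14). The 3 lower were Cd44, Prdm1 and Fasl. The natural killer list gave 3 higher of 12 (Eomes, Prf1 and Cd160), all of them also in the cytotoxic list. Its mean, these genes included, was 3.78 to 4.00 in CD4 and 4.35 to 4.54 in CD8 cells. The median difference was only 0.16, and 6 of the 12 genes lay at or below the table median in both lineages. The part of natural killer cells in the higher cytotoxic genes was not tested. Of 15 B cell genes Cd79b was higher (1.80 ± 0.20) and Cd79a lower (-0.44 ± 0.12), the latter in no fit without CD4 replicate 2 or 3 or a CD8 array. Of 14 myeloid and dendritic genes Fcgr3 was lower (-0.78 ± 0.21), and not without CD4 replicate 1 or 2 or CD8 replicate 1. Of 10 immature thymocyte genes Ccr9 and Themis were higher. The neutrophil list had 0 called of 11, and its mean ranged from 3.17 to 3.99 in CD4 cells and from 3.34 to 4.10 in CD8 cells. Gamma delta T cell, erythroid, platelet and sex-linked genes had 0 called.

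The same lineage comparison in Tsc1-deficient cells took its group means from 5 other arrays, 3 of CD4 and 2 of CD8 cells. Both comparisons share 1 estimate of the spread from all 16 arrays, so their calls are not independent. In the deficient cells 1142 genes were called (6.68%), 527 higher in CD8 cells (3.08%) and 615 lower (3.6%). Of these, 250 differed by at least 2-fold (1.46% of all genes). Arrays did not overlap for 35.9% of all genes there. The count was 511 (321 higher, 190 lower) without deficient CD8 replicate 2 and 1508 (479 higher, 1029 lower) without deficient CD8 replicate 1, so which direction has more genes depends on the array left out. Of the genes higher in wild-type CD8 cells 248 were also called higher in the deficient cells, which is 58.6% of the wild-type list and 47.1% of the deficient one. Of those lower, 249 were called lower in both, 56.7% and 40.5% of the lists, and 2 genes were called in opposite directions. All 20 highest and all 20 lowest wild-type genes were called the same way there. Cd8a differed by 6.03 ± 0.24, Itgae by 5.29 ± 0.21, Nkg7 by 4.94 ± 0.26, St8sia6 by -4.82 ± 0.17 and Cd4 by -4.18 ± 0.24.

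The difference of these differences was called for 20 genes (0.117%). Ccr9 is among them: its CD8 excess was 4.07 in wild-type and 1.21 in deficient cells. At an unadjusted p under 0.05 there were 1328. The count of 20 rests on every wild-type array and on each deficient CD4 array: it was 7 to 12 without any 1 of these 8, and 31 without deficient CD8 replicate 2 and stimulated deficient CD4 replicate 1.

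**Figure D4:**
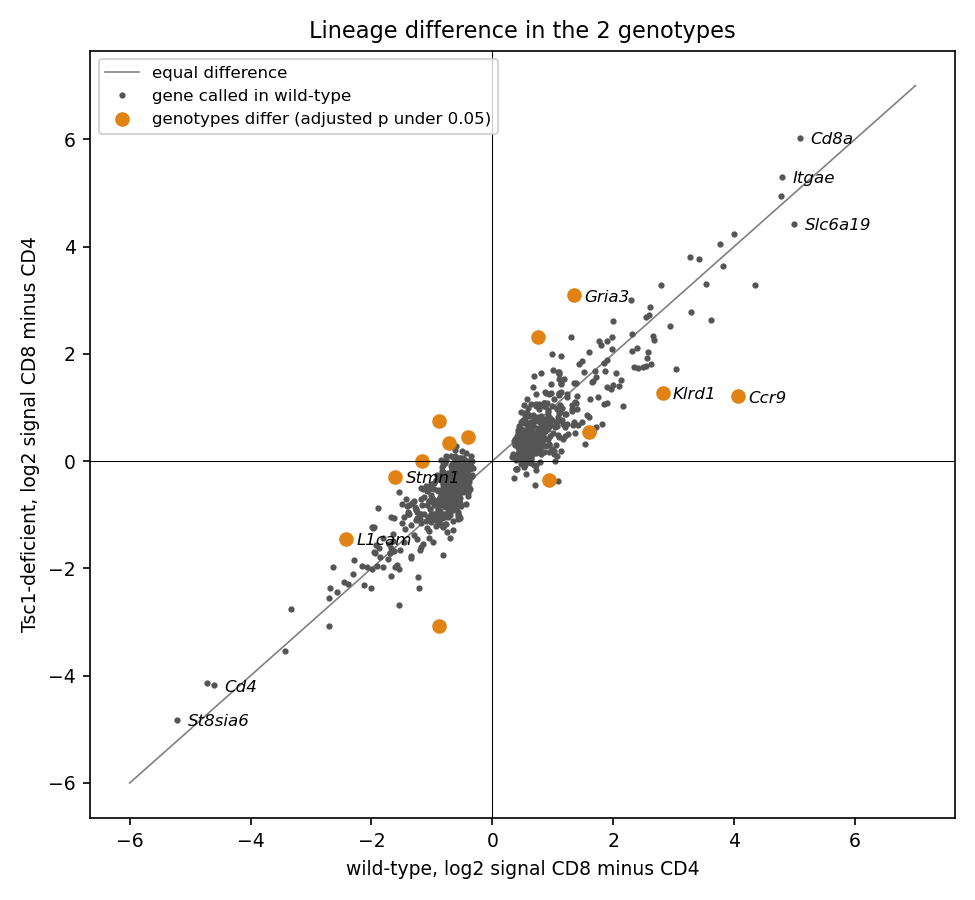
Log2 difference of CD8 minus CD4 signal in Tsc1-deficient cells (vertical axis) against wild-type cells (horizontal axis) for the 862 genes called in wild-type cells. The grey line marks equal differences and orange points mark genes whose differences differ between genotypes; Ccr9 and Klrd1 lie below the line.

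Stimulated wild-type CD4 cells, measured at 4 h, gave mixed levels of the genes that separate the resting lineages; these values share the resting CD4 arrays with the lineage comparison and were not tested. Cd8a read 5.05 ± 0.43 (SD, n = 3) in stimulated CD4 cells, against 6.42 ± 0.50 (SD, n = 3) in resting CD4 cells and 11.5 ± 0.24 (SD, n = 2) in CD8 cells. Klrd1 read 7.14 ± 0.15, 8.87 ± 0.08 and 11.7 ± 0.08 in the same order. Both means lay further from the CD8 mean after stimulation, and those of other genes lay nearer to it. Bend4 read 5.54 ± 0.31 in stimulated, 3.73 ± 0.08 in resting CD4 and 7.54 ± 0.10 in CD8 cells, and Cxxc5 6.95 ± 0.04, 5.02 ± 0.15 and 8.06 ± 0.07. Cd4 read 7.37 ± 0.12, 8.95 ± 0.08 and 4.35 ± 0.55, and Pdlim4 4.32 ± 0.06, 9.08 ± 0.06 and 4.36 ± 0.14. St8sia6 read 10.64 ± 0.10 after stimulation, above its resting 10.15 ± 0.06.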

How the data were processed

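RNA of sorted mouse T cells was measured on Affymetrix arrays. The deposited values are log2 signals that the authors made with RMA in Partek 6.5, per the submitters' processing notes. The table's median is 3.36, and a genome build was not given in the sources used here. Of 45141 probe sets, 28898 name 1 gene, 551 several and 15588 none, and 104 are controls. Each of 17097 genes was represented by its brightest probe set, by mean over 16 arrays.

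All 16 arrays entered 1 linear model of 6 group means in limma 3.58.1 (R 4.3.3), with 10 residual degrees of freedom, and Benjamini-Hochberg adjustment ran over all genes of a comparison. On simulated data for wild-type CD8 minus CD4 (17097 genes), 41% of 100 genes changed by 0.5 and 91% of 100 changed by 1 (log2) were called, with 8 false calls. The changed genes were drawn from the brighter part of all genes and changed in wild-type CD8 arrays only. Noise was normal and independent, with each gene's own spread. These shares therefore do not cover dim genes or technical differences tied to the lineage.

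The members and the gene lists (27 lists, 519 of 590 entries measured) were chosen with earlier results of these data known. Genes named are the 4 markers, the 20 highest and 20 lowest called genes whose arrays did not overlap and whose higher mean exceeded the table median, up to 5 called genes of each list by absolute difference, all genes of both lineage lists, and Tsc1; 12 others were chosen after their values were seen. Lists are described by counts and medians only. Alternatives covered probe set choice, dim genes, normalization, variance model, array weights, and leaving out arrays; the Gapdh covariate was chosen after the data were seen. Precision is limited by the number of arrays. The labels' treatment text names another deficient strain in 1 place, and the genotype entries were followed. Figures were drawn with matplotlib 3.10.9.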

Additional observations from a re-analysis of the deposited data

Results flagged for a closer look

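For Ccr9, Klrd1, L1cam and Stmn1, the CD8 minus CD4 difference was not the same in wild-type and Tsc1-deficient cells, by a test of the difference itself in limma adjusted over all genes. Each value is the deficient minus the wild-type difference. For Ccr9, the receptor for CCL25, it was -2.86 ± 0.30 (adjusted p = 0.000775): the CD8 excess was 4.07 in wild-type and 1.21 in deficient cells, and the group means were 6.67 and 10.7 in wild-type CD4 and CD8 cells against 10.6 and 11.8 in deficient ones. For Klrd1, the CD94 chain, it was -1.54 ± 0.17 (adjusted p = 0.000775), from 2.82 to 1.27, with means of 8.87 and 11.7 against 10.3 and 11.6. For L1cam it was 0.97 ± 0.16 (adjusted p = 0.0207), from -2.41 to -1.45, with means of 7.65 and 5.23 against 6.13 and 4.68. The L1cam call was lost without wild-type CD4 replicate 1 or 2, either wild-type CD8 replicate or deficient CD8 replicate 2. It was also lost in a fit of unstimulated arrays only (adjusted p = 0.0551), without the 2 arrays with a high 3' to 5' difference (adjusted p = 0.0529) and with averaged probe sets (0.51, adjusted p = 0.25), over a range of adjusted p from 0.0207 to 0.25. For Stmn1, which encodes the microtubule regulator stathmin and was named after its values were seen, it was 1.31 ± 0.15 (adjusted p = 0.000775), from -1.61 to -0.30, with means of 9.14 and 7.53 against 9.76 and 9.46.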

How the results depend on the processing

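The 862 genes called between wild-type CD8 and CD4 cells became 1345 when every probe set was tested, 1391 with array weights, 1324 without the 2 arrays with a high 3' to 5' difference and 247 at a minimum of 2-fold, and ranged from 416 to 620 with 1 array left out. For the 1142 of the Tsc1-deficient cells the count was 250 at a minimum of 2-fold and 511 to 1508 with 1 array left out. For the difference of the differences (20) it was 11 over genes above the table median, 31 without those 2 arrays and 7 to 24 with 1 array left out. The cause of these shifts was not tested. The other alternatives stayed within 1.5 times. Of 99 called genes named here, 78 kept the call in every setting where they were tested (14, or 13 for Cd200r3), and none of the 110 named genes reversed a call. Where 1 CD8 array is left, it is assumed to vary like the other groups. No paired analysis was possible because the labels give the groups no shared replicate number.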

Other observations

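Families chosen after the values were seen held further differences between wild-type CD8 and CD4 cells, given as a description. Of 32 myosin heavy chain genes, 3 were higher in CD8 cells (Myo1f, Myo5b and Myo7a) and 4 lower (Myo10, Myo18a, Myo5a and Myo6), with a median of 0.02 over the family (21.9% called, against 5.04% of all genes). Myo1f read 4.50, 3.71 and 3.89 on the CD4 arrays and 6.59 and 6.65 on the CD8 arrays (2.59 ± 0.19, adjusted p = 8.1e-08), while Myo10 was lower (-2.30 ± 0.16, adjusted p = 4.27e-08). Of 25 tetraspanins (16% called, against 5.04% of all genes), Tspan9 was higher (1.08 ± 0.17, adjusted p = 0.000641) and Cd81, Cd9 and Tspan32 were lower. Tspan32 read 9.67, 9.74 and 9.77 against 8.13 and 8.17 (-1.58 ± 0.12, adjusted p = 1.5e-07; -1.05 with its probe sets averaged). Cd9 was lower (-1.21 ± 0.24, adjusted p = 0.00613), a call lost without CD8 replicate 1.

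Of 4 measured genes for CD200 and its receptors, 3 were lower in CD8 cells (75% called, against 5.04% of all genes). Besides Cd200, these were Cd200r1, at 5.48, 5.54 and 5.57 against 3.72 and 3.48 (-1.93 ± 0.18, adjusted p = 2.71e-06), and Cd200r3 (-1.25 ± 0.16, adjusted p = 7.94e-05), whose CD8 values lie under the table median and whose difference was -0.70 with its probe sets averaged. Of 317 solute carriers, 14 were higher in CD8 cells and 7 lower (6.62% called, against 5.04% of all genes), with Slc6a19 at the top. Of 31 semaphorin, plexin and neuropilin genes, 0 were higher and 2 lower, Nrp1 and Plxnd1 (6.45% called, near the 5.04% of all genes); the Nrp1 call was lost without CD4 replicate 1 and without either CD8 array.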
